A study of Mus musculus with 75 samples.

Results

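Cannabinoid receptor 1, CB1, is a G protein-coupled receptor best known from nerve cells and also present on fat cells, where its ligands are lipids made from cell membranes. AM251 is a small molecule that binds CB1 and lowers its activity, an inverse agonist. White fat takes up glucose, turns it through acetyl-CoA into fatty acids, and stores these as triglycerides, and the genes of that route and of cholesterol synthesis are known targets of the SREBP and ChREBP transcription factors. Fat of mice that lack the receptor but received the drug was set against fat of treated mice that have it, so the comparison asks what loss of CB1 changes when every animal has been given AM251.

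The comparison held 8 of the 75 one-colour microarrays of the series. They are the 3 arrays of epididymal white fat from chow-fed, AM251-treated CB1R-/- (KO) mice, numbered 20, 21 and 23, and the 5 of chow-fed, AM251-treated wild-type (WT) mice, numbered 10 to 14. Members were picked by these labels and not by their measured values, under rules chosen with earlier results of these data known. All mice were males of a C57BL/6 background, the controls being littermates, and the receptor was missing from every tissue, so changes inside fat cells and changes that reach fat from the brain or other organs cannot be told apart. They ate regular chow with 13% of energy from fat for 14 weeks from 2 months of age and were given AM251 at 10 mg per kg by gavage on 2 consecutive afternoons, with tissue taken the morning after the second dose. Other groups of fat used here were chow-fed KO and WT mice given the 0.5% methylcellulose vehicle. KO and WT mice given AM251 after 14 weeks on a diet with 59.4% of energy from fat were used too. Each of these 4 groups had 5 arrays. Vehicle-treated fat on the high-fat diet, from KO (3 arrays) and WT mice (5 arrays), entered only the shared estimate of the spread. Liver of AM251-treated, chow-fed KO and WT mice was compared as well, in a separate fit over 39 liver arrays. Food intake and body weight, which the study recorded, were not used here, so lower or higher feeding after the drug cannot be told apart from other effects of genotype.

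Values are log2 of the deposited intensities, and a log2 change is KO minus WT with its standard error (SE) from limma, fitted over all 8 groups of fat. A gene passed the threshold at a Benjamini-Hochberg adjusted p under 0.05 over 19147 genes. The 8 arrays resembled each other: Pearson correlations across genes were 0.993 to 0.994 within KO, 0.989 to 0.995 within WT and 0.984 to 0.992 between them. Array medians on the linear scale ran from 44.3 to 45.9 in KO and from 45.7 to 47.9 in WT. The linear sums of marker lists given below were not scaled to these medians. The fat markers Adipoq (13.84 ± 0.10 in KO and 14.00 ± 0.06 in WT; SD, n = 3 and 5) and Fabp4 (14.17 ± 0.06 and 14.30 ± 0.08 for the same groups), which encode adiponectin and the fatty acid binding protein of fat cells, were among the brightest genes, in a tissue whose median gene had a log2 intensity of 6.32. Markers of epididymis and testis were dim on all 8 arrays, with a sum over 20 genes of 555 to 635 on the linear scale in KO and 567 to 672 in WT. Each array carries its own animal number. The SE and p-values rest on the spread between arrays within groups, pooled over all 36 fat arrays and not only these 8.

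Loss of CB1 moved 650 genes past the threshold (3.39% of those tested), 379 higher (1.98%) and 271 lower (1.42%) in KO. At an unadjusted p under 0.05 there were 3510 genes, with 957 expected by chance. Of the 650, 97 changed by more than 1 on the log2 scale, and the median change of all genes was -0.04. All KO arrays lay on one side of all WT arrays for 2370 genes (12.4%), 1042 higher (5.44%) and 1328 lower (6.94%), and 616 genes met both criteria (3.22%). The number of calls rested on few arrays: it was 252, 282 and 312 without KO arrays 20, 21 and 23, and 428 when only the 2 groups compared were fitted. Among 13842 probe sets without a gene in the annotation, tested on their own, 79 were higher and 45 lower.

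Cnr1, the gene of CB1, does not show the deletion clearly on these arrays, because its probe sets moved in opposite directions. Its brighter probe set had values of 7.28, 6.81 and 7.33 in KO, against 6.73, 5.25, 6.14, 7.29 and 5.37 in WT. The groups overlapped, and the change of 0.98 ± 0.37 did not pass the threshold (adjusted p = 0.137), although it did without WT array 13 (1.27, adjusted p = 0.0456). The other probe set went the opposite way, at 5.13 ± 0.17 in KO and 5.60 ± 0.21 in WT (SD, n = 3 and 5), a change of -0.47 ± 0.13 that passed (adjusted p = 0.0463 over all probe sets). Its arrays did not overlap, at 4.96 to 5.31 in KO and 5.42 to 5.92 in WT. Other mice did not show this separation. Under vehicle on chow the same probe set was at 5.15 to 5.59 in KO and 5.29 to 5.77 in WT. In AM251-treated high-fat fat it was at 5.20 to 5.73 in KO and 5.46 to 5.86 in WT. The brighter probe set had -0.33 ± 0.32 under vehicle (adjusted p = 0.794) and 0.91 ± 0.32 in AM251-treated high-fat fat (adjusted p = 0.0498). Where either probe set lies relative to the deleted sequence is not given in the sources used here, so neither checks the genotype. Of the 20 measured genes next to Cnr1 on chromosome 4, 10 on each side in RefSeq order, 2 passed: Gabrr2, which encodes a GABA receptor subunit (-1.36 ± 0.36, adjusted p = 0.0278), and Rars2, a mitochondrial arginyl-tRNA synthetase (0.28 ± 0.08, adjusted p = 0.0378). Both lost the call without any single KO array and without WT array 11. Rars2 also lost it without WT array 13 or 14, with only the compared groups and on quantile-normalized values. Over all 19147 genes 3.39% passed, and whether the neighbours differ from that share was not tested.

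The genes that make fatty acids rose together in KO fat. Of 25 measured genes of fatty acid and triglyceride synthesis, 15 rose, 0 fell and 10 did not pass, with a median change of 1.08 against -0.04 for all genes. Elovl6, the elongase of long-chain fatty acids, had values of 10.81, 10.84 and 11.60 in KO, against 8.06, 7.94, 7.92, 8.20 and 8.36 in WT. Every KO array lay above every WT array, and the change was 2.99 ± 0.44 (7.93-fold, adjusted p = 0.000174). Fasn, fatty acid synthase itself, stood at 12.49, 12.28 and 12.53 in KO, against 9.89, 9.76, 9.81, 9.91 and 9.97 in WT. The arrays of each genotype lay within 0.3 of one another in log2 and the genotypes were far apart, with a change of 2.56 ± 0.54 (5.91-fold, adjusted p = 0.00547).

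The enzymes that supply acetyl-CoA to this route were among the largest rises of the whole comparison. Acss2, the acetyl-CoA synthetase of the cytosol and nucleus, was at 12.22, 12.48 and 12.76 in KO and at 9.84, 9.63, 10.09, 9.49 and 9.90 in WT, a change of 2.70 ± 0.43 (adjusted p = 0.000472). Acly, the ATP citrate lyase that cuts citrate into acetyl-CoA, was at 12.76, 12.70 and 13.26 in KO and at 10.32, 10.32, 10.51, 10.32 and 10.84 in WT, a change of 2.45 ± 0.44 (adjusted p = 0.00156). Neither gene showed overlap between the genotypes. Slc25a1, the carrier that brings citrate out of mitochondria, rose by 1.31 ± 0.23 (adjusted p = 0.00145), Acaca, the acetyl-CoA carboxylase of fatty acid synthesis, by 1.96 ± 0.37 (adjusted p = 0.002) and the desaturase Fads1 by 1.20 ± 0.20 (adjusted p = 0.000899). The other Acaca probe set differed by 0.21, and the mean of both gave 1.09 (adjusted p = 0.00134).

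Other genes of the route did not pass. Scd1, the stearoyl-CoA desaturase, was at 14.49 ± 0.07 in KO and 14.46 ± 0.04 in WT (SD, n = 3 and 5) (0.03 ± 0.07, adjusted p = 0.856). This probe set lay at percentile 100 of genes by mean level in fat, and whether it was saturated was not tested. The other Scd1 probe set was higher in KO by 1.06 in log2, and its own p-value is not given here. The mean of both gave 0.54 (adjusted p = 0.136). The lipogenic regulator Thrsp had a change of 0.44 ± 0.19 that did not pass (adjusted p = 0.203). The count of 15 was 10 without KO array 20 and 10 without KO array 21, and the median lay between 1.04 and 1.15 whichever array was left out.

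**Figure D1:**
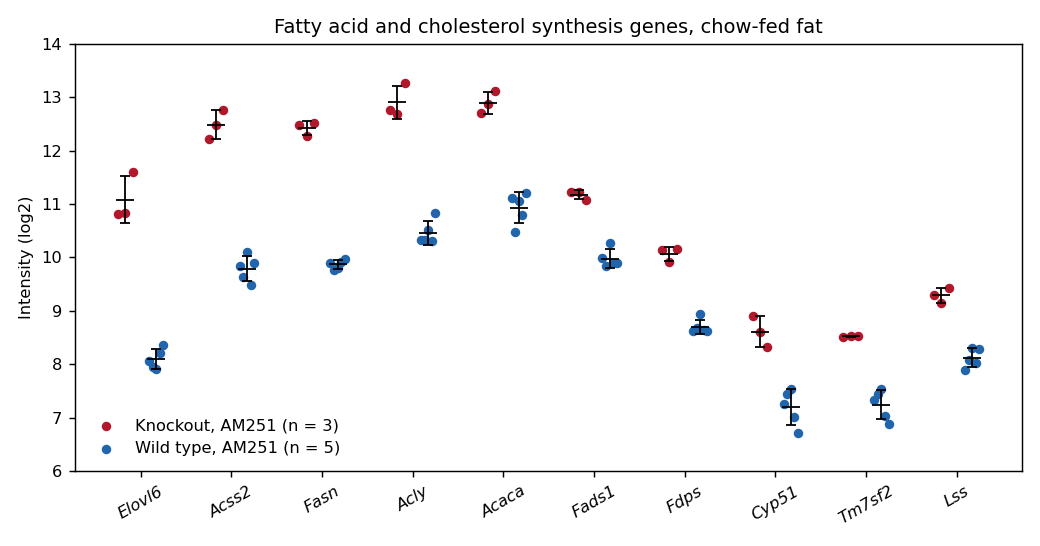
Log2 intensity (vertical axis) of 6 fatty acid synthesis genes and 4 cholesterol synthesis genes on each array of AM251-treated, chow-fed KO fat (red, n = 3, left of each pair) and WT fat (blue, n = 5). Black bars give the mean and SD; for every gene drawn, all KO arrays lie above all WT arrays. Genes were chosen after their values were seen.

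Cholesterol synthesis rose as well. Of 19 measured genes 15 rose, 0 fell and 4 did not pass, with a median of 0.91, and all 19 changes were positive. Fdps, the farnesyl diphosphate synthase, had values of 10.14, 9.92 and 10.15 in KO, against 8.62, 8.67, 8.94, 8.64 and 8.62 in WT, a change of 1.37 ± 0.21 (adjusted p = 0.000248). The sterol demethylase Cyp51 was at 8.90, 8.60 and 8.32 in KO, against 7.26, 7.44, 7.54, 7.01 and 6.72 in WT (1.41 ± 0.26, adjusted p = 0.0018). Both genes separated the genotypes completely, although the mean of the Cyp51 probe sets gave a smaller change of 0.92 (adjusted p = 0.00954). Tm7sf2, a sterol reductase, rose by 1.28 ± 0.19 (adjusted p = 0.000179) and Lss, the lanosterol synthase, by 1.17 ± 0.20 (adjusted p = 0.00114). Insig1, which holds the SREBP complex in the endoplasmic reticulum and is itself an SREBP target, rose by 1.08 ± 0.27 (adjusted p = 0.0194), a call lost without KO array 20 (adjusted p = 0.135) or 21 (adjusted p = 0.0536).

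Without KO array 20, 6 of the 19 passed, with a median of 0.70. The 4 genes named first above (Fdps, Cyp51, Tm7sf2 and Lss) passed with any one of the 8 arrays left out.

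Promoters of the genes that rose were searched for 2 motifs, since both pathways are read out from their promoters by known factors. The CCAAT box, bound by NF-Y, was searched as ATTGG on both strands, and one form of the sterol regulatory element as TCACNCCAC on both strands. Each promoter was 300 bases (250 before to 50 after a start site, RefSeq, GRCm38.p6). Some genes had several promoters, and a gene was counted if any of them held the motif. Of the 15 cholesterol genes that rose, 13 had a promoter in the table, and all 13 held a CCAAT box in at least 1 promoter, as did all 3 matched genes that did not pass. Counted by promoter, 13 of the 16 promoters of the genes that rose held it (81.25%), against 37.4% of all 32851 promoters. Of 12 matched fatty acid synthesis genes that rose, 8 held it (66.7%), and of 12 matched oxidative phosphorylation genes that rose, 5 held it (41.7%). Over all 27025 genes in the table the share was 41.1%. TCACNCCAC was in a promoter of 0 of the 13 cholesterol genes that rose and of 1 of the 12 fatty acid genes that rose (Mlxipl). The share over all genes was 1.44%, and nothing about SREBP binding follows from this. The promoters of Mvk and Nsdhl are printed as those with many CCAAT boxes among cholesterol genes that rose (Mvk, the mevalonate kinase, by 0.51 ± 0.13, adjusted p = 0.02; Nsdhl, a sterol dehydrogenase, by 1.07 ± 0.23, adjusted p = 0.00652), and that of Fasn as the fatty acid gene with the most boxes among those that rose. The Mvk and Nsdhl calls were lost without KO array 20. Sequences are 5′ to 3′ on the gene's strand, and capitals mark ATTGG or its complement CCAAT. The Mvk promoter is at chr5:114444019-114444318 (plus strand), that of Nsdhl at chrX:72918271-72918570 (plus strand) and that of Fasn at chr11:120824498-120824797 (minus strand).
Mvk: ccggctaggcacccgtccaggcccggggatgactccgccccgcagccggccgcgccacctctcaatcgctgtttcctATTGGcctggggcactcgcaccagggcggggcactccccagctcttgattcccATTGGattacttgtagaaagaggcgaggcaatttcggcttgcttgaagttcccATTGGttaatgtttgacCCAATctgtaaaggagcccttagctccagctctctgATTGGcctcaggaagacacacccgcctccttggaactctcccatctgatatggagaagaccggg
Nsdhl: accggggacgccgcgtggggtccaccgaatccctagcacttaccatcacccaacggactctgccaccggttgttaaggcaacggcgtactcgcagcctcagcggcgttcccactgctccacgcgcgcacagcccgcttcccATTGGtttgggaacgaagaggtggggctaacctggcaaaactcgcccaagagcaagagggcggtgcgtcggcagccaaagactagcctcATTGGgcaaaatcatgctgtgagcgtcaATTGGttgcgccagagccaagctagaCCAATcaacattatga
Fasn: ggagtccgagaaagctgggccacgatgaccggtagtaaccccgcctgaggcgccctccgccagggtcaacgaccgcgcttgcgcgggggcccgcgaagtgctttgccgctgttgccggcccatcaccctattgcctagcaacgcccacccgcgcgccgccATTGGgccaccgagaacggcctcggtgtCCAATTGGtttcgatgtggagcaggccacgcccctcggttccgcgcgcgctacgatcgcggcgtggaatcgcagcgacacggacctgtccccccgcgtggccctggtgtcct
The Mvk window held 5 boxes, that of Nsdhl 4 and that of Fasn 3, of which a pair overlap in the run CCAATTGG. A match of 5 letters is a description of the window and not a measured site.

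The step between glycolysis and acetyl-CoA rose with them. The pyruvate dehydrogenase and tricarboxylic acid cycle lists were drawn up after their values were seen and carry no weight as lists. Of 14 measured genes of pyruvate dehydrogenase and its regulators 8 rose, 0 fell and 6 did not pass (median 0.50). The catalytic subunits and the core of the complex are among them: Pdhb was at 12.61, 12.49 and 12.69 in KO, against 11.56, 11.54, 11.61, 11.23 and 11.69 in WT (1.07 ± 0.18, adjusted p = 0.000899). Pdha1 rose by 0.85 ± 0.14 (adjusted p = 0.000803), Dlat by 0.79 ± 0.14 (adjusted p = 0.0012) and Pdhx by 0.82 ± 0.14 (adjusted p = 0.000998). Pdk1, a kinase that switches the complex off, also rose, from a family whose member Pdk4 had a change of -0.89 ± 0.36 that did not pass (adjusted p = 0.173; 0.0436 with only the groups compared in the fit). Pdk1 was at 8.41, 8.48 and 8.96 in KO and at 7.25, 7.15, 7.27, 7.30 and 7.05 in WT, with no overlap (1.41 ± 0.16, adjusted p = 5.39e-06).

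Further genes of mitochondrial carbon use rose by smaller amounts. Pcx, the pyruvate carboxylase that replenishes the cycle, rose by 0.89 ± 0.17 (adjusted p = 0.00193). Of 17 genes of the tricarboxylic acid cycle 8 rose and 0 fell (median 0.38), among them the citrate synthase Cs (0.56 ± 0.10, adjusted p = 0.00203) and the isocitrate dehydrogenase subunit Idh3b (0.53 ± 0.10, adjusted p = 0.00145). Of 47 genes of oxidative phosphorylation 17 rose and 0 fell, with a median of 0.29 and 46 of 47 changes positive. Examples are the complex I subunit Ndufs1 (0.58 ± 0.11, adjusted p = 0.00219), the complex III subunits Uqcrfs1 (0.49 ± 0.09, adjusted p = 0.0022) and Cyc1 (0.51 ± 0.11, adjusted p = 0.00645) and the ATP synthase subunit Atp5d (0.38 ± 0.06, adjusted p = 0.000899). These changes are under 1 on the log2 scale, and the count of oxidative phosphorylation calls depended on the fit: 3 of 47 passed when only the 2 groups compared were fitted, 10, 7 and 4 without KO arrays 20, 21 and 23, and 9 without WT array 13, while the median stayed between 0.23 and 0.31. The cycle had 5 calls with only the compared groups, 4 and 3 without KO arrays 21 and 23, and 5 without WT array 13.

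**Figure D2:**
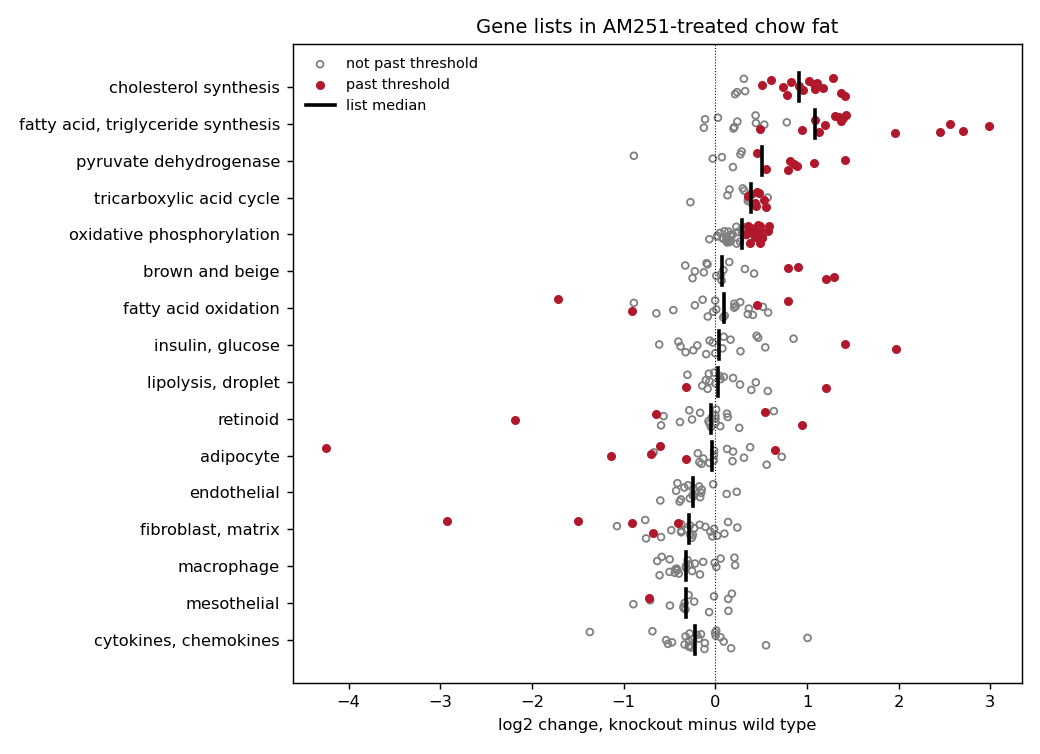
Log2 change, KO minus WT (horizontal axis), of each measured gene in 16 lists, in AM251-treated, chow-fed fat. Filled red points passed the threshold, open points did not, and black bars are list medians. The synthesis lists have medians right of 0, at 0.91 and 1.08. The fibroblast, macrophage and mesothelial lists have medians left of 0, with some of their genes right of it.

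Glycogen genes were also among the 12 largest rises. Ppp1r3b, the subunit that brings protein phosphatase 1 to glycogen, was at 9.50, 7.89 and 7.96 in KO, against 6.42, 5.24, 6.06, 6.91 and 5.79 in WT (2.37 ± 0.35, adjusted p = 0.000148). Gys2, the glycogen synthase best known from liver, was at 8.27, 8.09 and 8.26 in KO, against 5.85, 7.08, 5.92, 5.94 and 6.41 in WT (1.97 ± 0.41, adjusted p = 0.00451). Neither overlapped between genotypes, though KO array 20 stood above the other KO arrays for Ppp1r3b and WT array 11 above its group for Gys2. Of 20 genes of insulin signalling and glucose use, 2 rose (Gys2 and Pdk1) and 0 fell, with a median of 0.04. The hexokinase Hk2 had a change of 0.54 ± 0.18 that did not pass (adjusted p = 0.0906).

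The largest rise of all was in H2-Q10, a class I histocompatibility gene whose product is secreted, mainly by liver. It was at 10.45, 10.88 and 10.86 in KO and at 6.71, 5.55, 6.94, 5.44 and 5.95 in WT. The gap between the genotypes was wider than the range within either, with a change of 4.61 ± 0.48 (24.4-fold, adjusted p = 1.24e-06). H2-Q10 belongs to a family of near-identical genes, so which member the probe set measured is uncertain. The next, Cyp2f2, a cytochrome P450 best known from airway cells, was at 10.65, 11.31 and 10.50 in KO and at 7.89, 5.45, 8.11, 5.86 and 5.73 in WT. Its WT arrays spread widely but all stayed below KO, with a change of 4.21 ± 0.70 (18.5-fold, adjusted p = 0.000776).

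Angptl8, a secreted inhibitor of lipoprotein lipase made by liver and fat after feeding, was at 11.39, 8.33 and 8.87 in KO, against 7.26, 7.35, 7.05, 8.12 and 7.41 in WT. KO array 20 carried much of the change of 2.09 ± 0.45 (adjusted p = 0.00681), which was 1.16 without it and did not pass (adjusted p = 0.155), nor in a fit of the compared groups alone (adjusted p = 0.0675). The DNA helicase gene Recql4 (2.13 ± 0.28, adjusted p = 4.5e-05) and Tmem79 (2.02 ± 0.27, adjusted p = 5.8e-05) rose with no overlap. Of the 12 largest rises, Angptl8 was the only one lost with 1 array left out.

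The largest fall was in Sfrp5, which encodes a secreted antagonist of Wnt ligands that fat cells make. It stood at 7.43, 7.07 and 7.73 in KO, against 11.36, 12.56, 11.08, 11.84 and 11.46 in WT. All KO arrays were far below all WT arrays, with a change of -4.25 ± 0.59 (adjusted p = 7.53e-05). Thbs1, the matrix protein thrombospondin 1, followed, at 8.09, 9.42 and 9.31 in KO, against 11.69, 12.60, 11.18, 12.03 and 11.84 in WT (-2.93 ± 0.53, adjusted p = 0.00156). Cilp, a matrix protein of cartilage, was at 9.06, 8.42 and 8.74 in KO, against 10.24, 10.63, 10.49, 10.72 and 10.79 in WT (-1.84 ± 0.23, adjusted p = 1.22e-05).

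Of the rest of the 12 largest falls, the actin-binding protein gene Synpo2 fell by 2.31 ± 0.48 (adjusted p = 0.00485), Cyp26b1, an enzyme that degrades retinoic acid, by 2.18 ± 0.36 (adjusted p = 0.000756) and Zfyve28 by 1.77 ± 0.38 (adjusted p = 0.00586). The mean of the Synpo2 probe sets gave -1.43 (adjusted p = 0.0119). Slc5a7, the high-affinity choline transporter, was near the dim end in KO, at 3.78, 4.00 and 3.87, against 5.24, 8.22, 6.07, 7.18 and 6.14 in WT. Its change of -2.68 ± 0.67 (adjusted p = 0.0192) did not pass without any single KO array, without WT array 11 or on log2 of intensity + 16 (adjusted p = 0.066). Crtac1 (-2.66 ± 0.59, adjusted p = 0.00864) and Fgf13 (-1.98 ± 0.46, adjusted p = 0.013) were lost without KO array 21, and Bmp3 (-1.63 ± 0.35, adjusted p = 0.00688), a secreted antagonist of other bone morphogenetic proteins, without 20 or 21. The pantetheinase gene Vnn1 (-1.72 ± 0.42, adjusted p = 0.0172) was lost without KO array 20 or 23. Cd55, a brake on complement, had its lowest value, 4.51, in KO array 21, and its change of -1.66 ± 0.45 (adjusted p = 0.0331) was -0.96 without that array (adjusted p = 0.302), and did not pass without KO array 20 or WT array 13 or 14.

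**Figure D3:**
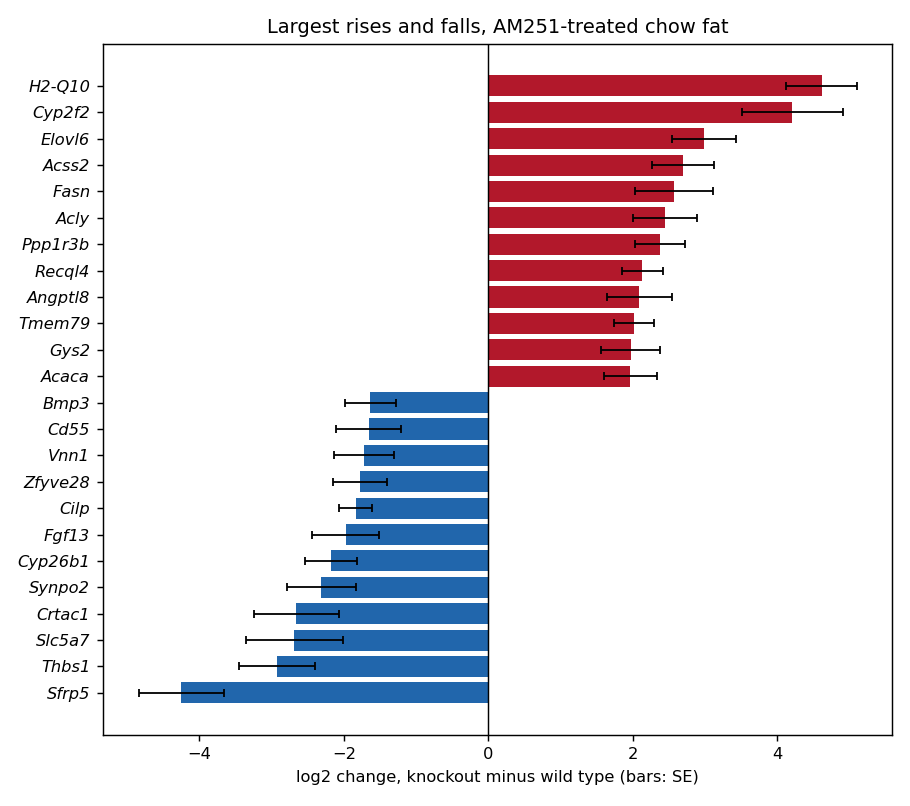
Log2 change with SE, KO minus WT, of the 12 largest rises (red) and the 12 largest falls (blue) among genes past the threshold whose arrays did not overlap between genotypes, in AM251-treated, chow-fed fat (n = 3 and 5). Rises run from 4.61 for H2-Q10 to 1.96 for Acaca and falls from -4.25 for Sfrp5 to -1.63 for Bmp3.

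Of 22 adipocyte genes 1 rose and 5 fell, with a median of -0.04. Their sum on the linear scale was 160929 to 168599 in KO and 175125 to 185551 in WT, with no overlap, while under vehicle it was 168252 to 174943 in KO and 167234 to 178884 in WT. Pparg, the receptor that directs fat cell formation, rose by 0.65 ± 0.18 (adjusted p = 0.0335). Lep, the satiety hormone leptin, was at 12.35, 11.53 and 11.55 in KO and at 12.78, 13.61, 12.69, 12.98 and 12.67 in WT, a change of -1.14 ± 0.28 (adjusted p = 0.0168). Trarg1, a protein of the glucose transporter vesicles, fell by 0.60 ± 0.14 (adjusted p = 0.0151), the lipid droplet protein gene Cidec by 0.32 ± 0.08 (adjusted p = 0.0262) and Npr3, which clears natriuretic peptides, by 0.70 ± 0.20 (adjusted p = 0.0416); Sfrp5 is the fifth. Of these calls that of Sfrp5 held with every array left out in turn, and the number lower was 2 without KO array 21 or 23, and 3 without KO array 20, without WT array 11 or 13, or with only the compared groups. Npr3 was at -0.46 without KO array 21 (adjusted p = 0.282). Pparg was lost without any single KO array and without WT array 11, 13 or 14.

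A few genes linked to brown fat and mitochondria rose while the defining one did not. Of 17 brown and beige genes 4 rose and 0 fell: the droplet protein gene Cidea (1.21 ± 0.18, adjusted p = 0.000143), the cytochrome oxidase subunit Cox8b (1.29 ± 0.25, adjusted p = 0.00212) and the coactivators Ppargc1b (0.90 ± 0.21, adjusted p = 0.0147) and Ppargc1a (0.79 ± 0.21, adjusted p = 0.0303). Ucp1, the uncoupling protein that makes heat, was dim in both groups, at 4.67 ± 0.03 in KO and 4.76 ± 0.32 in WT (SD, n = 3 and 5; adjusted p = 0.742). Ppargc1a lost its call without any single KO array, without WT array 11 and with only the compared groups, and Ppargc1b without KO array 20 and with the mean of its probe sets (0.49, adjusted p = 0.0951). The number of brown and beige calls was 2 without KO array 20.

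Fatty acid oxidation showed no common direction. Of 24 genes 2 rose (Ppargc1a and Hadha, a subunit of the trifunctional protein, 0.46 ± 0.12, adjusted p = 0.0305) and 2 fell (Vnn1 and Angptl4, an inhibitor of lipoprotein lipase that rises with fasting, -0.91 ± 0.25, adjusted p = 0.0353), with a median of 0.09. Neither rise passed without any single KO array or in a fit of the compared groups alone, and the fall of Angptl4 was lost in that fit (adjusted p = 0.0517) and without KO array 20 (-0.59, adjusted p = 0.289) or 21 or WT array 11 or 13. Of 18 lipolysis and droplet genes 1 rose, Cidea, and 1 fell, Cidec, a call also lost on quantile-normalized values. Of 23 retinoid genes 2 rose (Aldh1a7, 0.94 ± 0.18, adjusted p = 0.00211, and Rdh10, a retinol dehydrogenase, 0.54 ± 0.11, adjusted p = 0.00485) and 2 fell (Cyp26b1 and Rarres2, the chemokine chemerin, -0.65 ± 0.12, adjusted p = 0.00219). Of 19 endocannabinoid genes 1 rose, Gde1 (0.56 ± 0.16, adjusted p = 0.0426), and 1 fell, the CB1-binding protein gene Cnrip1 (-0.41 ± 0.09, adjusted p = 0.0113). Both were lost with only the compared groups and without KO array 20, and Gde1 also without any other array than WT array 12. Abhd6, a hydrolase of the endocannabinoid 2-arachidonoylglycerol, had a change of 0.39 ± 0.12 (adjusted p = 0.0676).

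Matrix genes fell. Of 28 fibroblast and matrix genes 0 rose and 5 fell, with a median of -0.29 and 24 of 28 changes negative. Besides Thbs1 these were its relative Thbs2 (-1.50 ± 0.36, adjusted p = 0.0137), the collagen gene Col6a1 (-0.69 ± 0.12, adjusted p = 0.00114), Sparc (-0.41 ± 0.08, adjusted p = 0.00193) and periostin, Postn (-0.91 ± 0.25, adjusted p = 0.0363). Their sum over the list on the linear scale was 68580, 72322 and 73633 in KO, against 85960, 89445, 86700, 95534 and 81541 in WT, with no overlap. The sum was also lower without overlap under vehicle, at 72844 to 78670 in KO and 84536 to 89288 in WT, where 0 of the 28 genes passed in limma and 11 had an unadjusted p under 0.05, all lower in KO. Over all 19147 genes, 1733 had such a p under vehicle. With AM251 not all bright genes of the list fell. Dcn had -0.05 and the Col3a1 probe sets -0.03 and 0.07, while Col1a2 had -0.59 and did not pass. In bulk tissue fewer fibroblasts and less RNA per cell cannot be told apart. Postn was lost without KO array 20 or 21 or WT array 11, 12 or 13, and with the mean of its probe sets (-0.50, adjusted p = 0.143), Thbs2 without KO array 20 and Sparc in a fit of the compared groups alone (adjusted p = 0.0505). The number lower was 3 without KO array 20.

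Macrophage markers had a lower summed level in KO, but single genes did not pass. Of 23 markers 0 passed in limma, 6 had an unadjusted p under 0.05, all lower in KO, and 19 changes were negative, with a median of -0.32. Over all 19147 genes, 3510 had such a p. Clec10a, a lectin of resident macrophages, was at 10.97, 10.92 and 11.10 in KO and at 11.36, 11.76, 11.50, 11.29 and 11.25 in WT (-0.44 ± 0.14, adjusted p = 0.0749), and the colony-stimulating factor receptor gene Csf1r had a change of -0.42 ± 0.16 (adjusted p = 0.131). The linear sum over the list was 18543, 19217 and 22724 in KO, against 26014, 31490, 27477, 24785 and 24949 in WT, with no overlap. Under vehicle the same sum ran from 18615 to 26164 in KO and from 18619 to 26182 in WT, so the genotypes overlapped there. Sums of other cell markers were lower in KO with AM251 too. The mesothelial sum was 12579 to 15641 in KO and 17262 to 20392 in WT, with no overlap. Under vehicle that sum was 15420 to 17381 in KO and 17184 to 19157 in WT, which overlapped slightly. The brightest of the 15 mesothelial genes were Igfbp5 and Efemp1. With AM251, 4 of the 15 had an unadjusted p under 0.05 in limma, all lower in KO. Wt1 (0.18), Lrrn4 (0.14) and Cldn1 (0.14) had positive changes. Of the endothelial changes 16 of 18 were negative, with sums of 15172 to 18035 in KO and 17959 to 19550 in WT, which overlapped. Among 17 genes of lipid-associated macrophages 0 passed and 3 had an unadjusted p under 0.05 (median -0.34), although Mmp12, a macrophage elastase, was at 7.38, 6.26 and 6.92 in KO, against 9.19, 9.74, 8.63, 8.70 and 8.14 in WT, with a change of -2.03 ± 0.60 (adjusted p = 0.0531). It passed in 4 alternatives, a fit of the compared groups alone among them (adjusted p = 0.00616), but its other probe set differed by -0.07 and the mean of both gave -1.05 (adjusted p = 0.103). The part of these cell markers in the changes of other genes was not tested.

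The mesothelial, clock, acute phase and Schwann cell lists held at most 1 call in each direction. Msln, the mesothelial marker mesothelin, fell by 0.72 ± 0.19 (adjusted p = 0.0256), the clock gene Bhlhe40 rose by 1.01 ± 0.25 (adjusted p = 0.0181), the plasma protein gene Itih4 by 1.66 ± 0.28 (adjusted p = 0.000899) and the myelin gene Pmp22 by 0.50 ± 0.14 (adjusted p = 0.0403). Of these Itih4 kept its call with each array left out, and the other calls ended without KO array 20 among others. Among markers of endothelium, smooth muscle, skeletal muscle, T and B cells, red blood cells, exocrine pancreas and epididymis, and among genes of cytokines, interferon response, MHC class II, cell cycle, endoplasmic reticulum stress, immediate early response and glucocorticoid response, 0 of 262 genes passed in limma and 36 had an unadjusted p under 0.05, with medians from -0.24 for endothelium to 0.12 for the interferon response. Over all 19147 genes, 3510 had such a p.

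The same genotype contrast under vehicle, in other chow-fed mice, gave 11 calls (0.0575%), 4 higher (0.0209%) and 7 lower (0.0366%), with 1733 genes at an unadjusted p under 0.05. Of the 650 genes, 497 (76.5%) had the same sign there, against 47.5% of all genes, and 128 of them had an unadjusted p under 0.05, with 16 of opposite sign. The 650 were chosen for their size in the AM251 contrast, so smaller changes elsewhere follow in part from that choice and are given as values only. Under vehicle Elovl6 had 0.79 ± 0.39 (adjusted p = 0.551), Fasn 0.34 ± 0.47 (adjusted p = 0.87), Sfrp5 -1.45 ± 0.51 (adjusted p = 0.343) and H2-Q10 1.82 ± 0.42 (adjusted p = 0.0817). The medians of the synthesis lists under vehicle were 0.21 for fatty acids and 0.03 for cholesterol, with 0 calls in each by limma, and 5 of 25 and 1 of 19 genes at an unadjusted p under 0.05. WT vehicle array 5 had a smooth muscle marker sum of 27066 on the linear scale, against 5648 to 6668 on the other WT vehicle arrays. Its skeletal muscle sum (6032) and epididymis and testis sum (1263) were also the highest of its group. Without this array 12 genes passed in the vehicle contrast.

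Whether the genotype effect itself differed between AM251 and vehicle was tested as an interaction, and 1 gene passed (0.00522%), Fdps, with 2839 at an unadjusted p under 0.05. Without WT vehicle array 5, 15 genes passed. Fdps averaged 10.07 ± 0.13 in AM251-treated KO mice and 8.70 ± 0.14 in AM251-treated WT mice (SD, n = 3 and 5), against 8.67 ± 0.35 in vehicle KO mice and 9.21 ± 0.38 in vehicle WT mice (SD, n = 5 each). The difference of the genotype effects was 1.91 ± 0.28 (adjusted p = 0.00142). It stayed past the threshold in all 25 alternative and leave-one-out fits, with adjusted p from 0.000555 to 0.0147. For the other synthesis genes the difference between AM251 and vehicle did not pass: it was 2.20 ± 0.59 for Elovl6 (adjusted p = 0.136) and 2.22 ± 0.71 for Fasn (adjusted p = 0.166). The contrasts of AM251 against vehicle within each genotype use the same arrays, so their values are only set beside these. They moved 3 genes in KO mice (0.0157%), all higher with AM251, and 0 in WT mice, with 1556 and 2559 genes at an unadjusted p under 0.05 in limma. AM251 against vehicle gave Elovl6 1.53 ± 0.44 in KO mice (adjusted p = 0.4) and -0.67 ± 0.39 in WT mice (adjusted p = 0.458), and Fdps 1.40 ± 0.21 in KO mice (adjusted p = 0.00249) and -0.51 ± 0.18 in WT mice (adjusted p = 0.239).

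**Figure D4:**
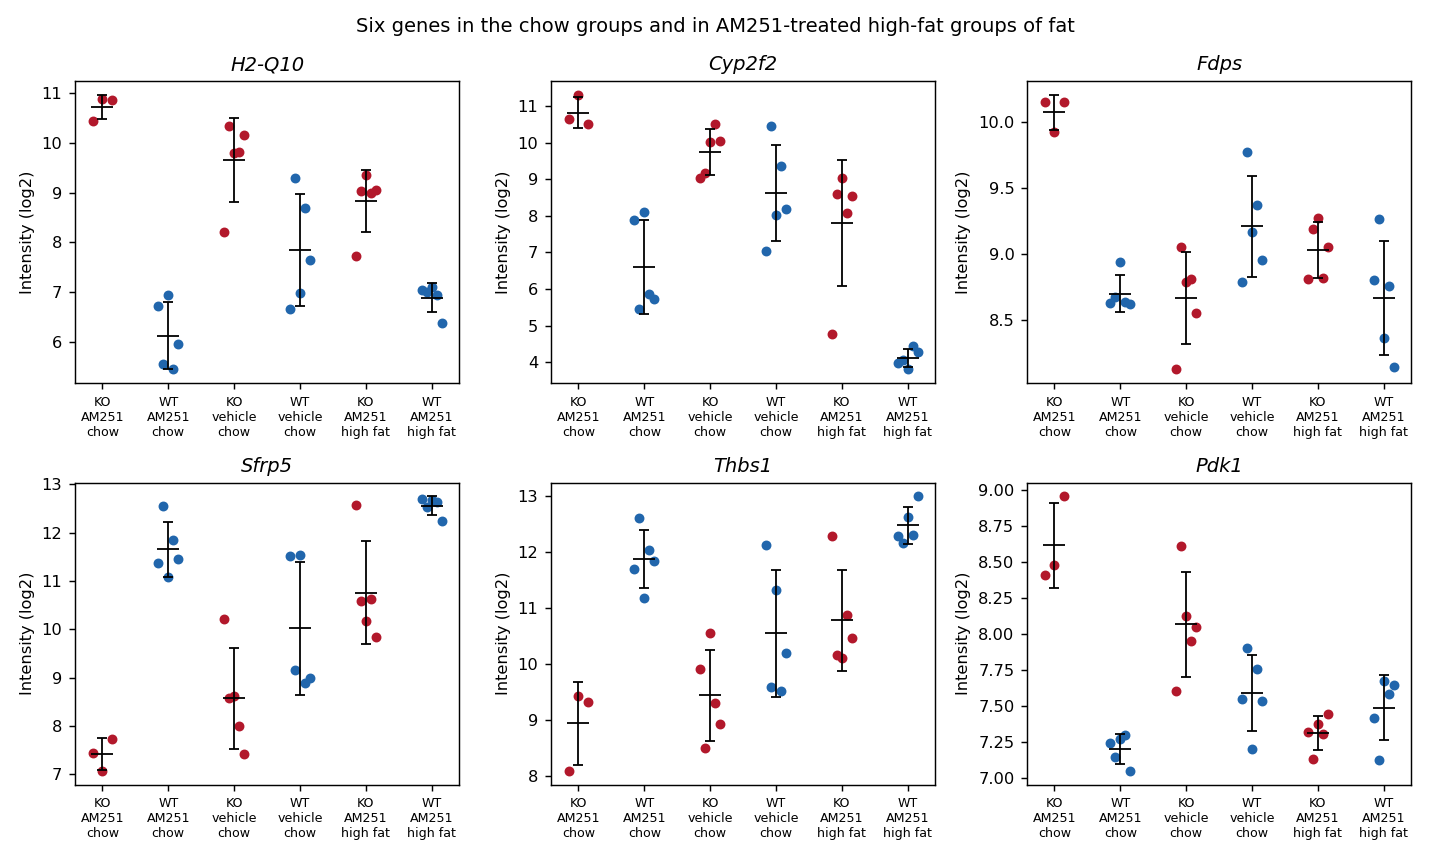
Log2 intensity (vertical axes) of H2-Q10, Cyp2f2, Fdps, Sfrp5, Thbs1 and Pdk1 in 6 groups of fat, KO in red and WT in blue, with mean and SD in black (n = 3 for the first group and 5 for the others). KO and WT are apart in the AM251-treated chow groups for all 6 genes, and Pdk1 in the high-fat groups lies at 7.32 in KO and 7.49 in WT. Genes were chosen after their values were seen.

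In AM251-treated mice on the high-fat diet the genotype contrast moved 2908 genes (15.2%), 1569 higher (8.19%) and 1339 lower (6.99%). Of the 650 genes, 554 (85.2%) had the same sign there, against 61.6% of all genes. In that contrast 307 of them passed in the same direction, which is 47.2% of the 650 and 10.6% of the 2908, and 1 passed in the opposite one. The genes that rose kept their sign more often (360 of 379) than those that fell (194 of 271), a difference that was not tested. Of the fatty acid synthesis genes 15 of 25 rose there (median 0.86), though not all the same genes as on chow, since Elovl6 did not pass. Of the cholesterol genes 7 of 19 rose (median 0.48) and of the oxidative phosphorylation genes 12 of 47, with 2 lower (median 0.10). Fasn had 2.06 ± 0.47 (adjusted p = 0.00246), Sfrp5 -1.80 ± 0.51 (adjusted p = 0.0138), Cyp2f2 3.69 ± 0.61 (adjusted p = 0.000108) and Elovl6 0.76 ± 0.39 (adjusted p = 0.202). One WT array of that contrast, from mouse 36, had an epididymis and testis marker sum of 15466 on the linear scale, against 605 to 1335 on the other WT arrays of its group; without it 2310 genes passed.

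**Figure D5:**
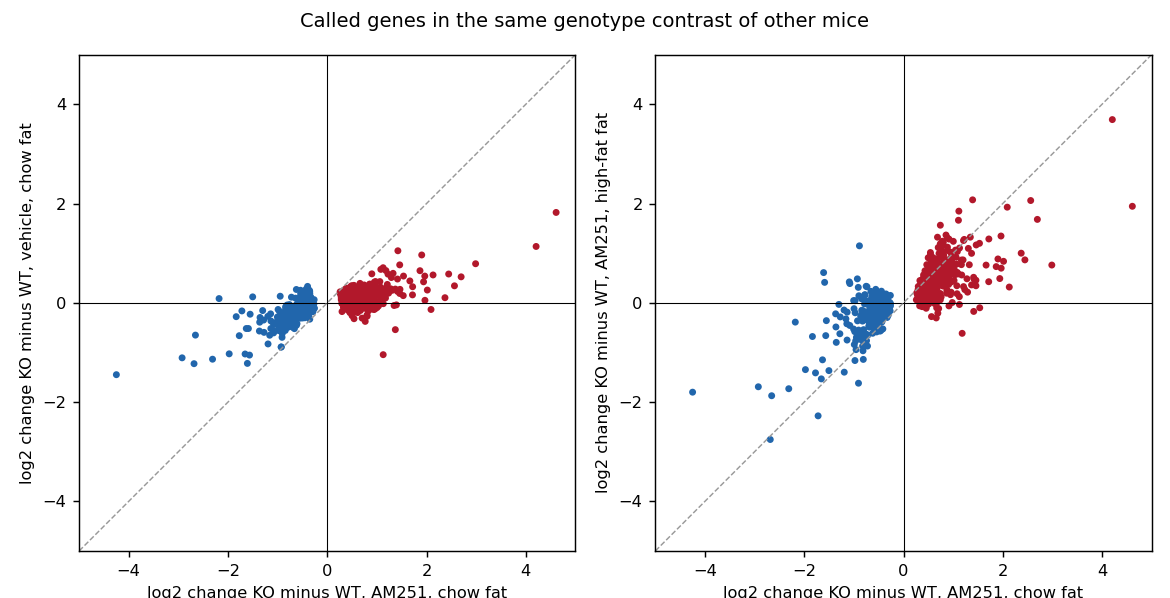
Each point is 1 of the 650 genes past the threshold in AM251-treated, chow-fed fat, with its log2 change, KO minus WT, there (horizontal axis) against the same genotype contrast in vehicle-treated chow fat (left) and in AM251-treated high-fat fat (right, vertical axes). Red genes were higher and blue genes lower in KO; most keep their sign, 497 and 554 of 650, and points nearer the horizontal line than the dashed line of equal change were smaller in the other mice, which follows in part from choosing the genes on the horizontal axis.

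Diet changed the genotype effect of AM251-treated fat for 45 genes (0.235%). The effect on chow was the higher one for 12 (0.0627%) and the lower one for 33 (0.172%), with 2447 at an unadjusted p under 0.05. Pdk1 had 1.41 ± 0.16 on chow and -0.17 ± 0.14 on the high-fat diet (adjusted p = 0.477), a difference of 1.59 ± 0.22 (adjusted p = 0.000384). Among the 6 largest differences in each direction, Chchd10, a mitochondrial protein gene, had 1.18 ± 0.26 on chow (adjusted p = 0.00887) and -0.62 ± 0.23 on the high-fat diet (adjusted p = 0.064), a difference of 1.80 ± 0.35 (adjusted p = 0.0197). Hspb7, a small heat shock protein gene, had -1.61 ± 0.35 on chow (adjusted p = 0.00721) and 0.61 ± 0.30 on the high-fat diet (adjusted p = 0.194), a difference of -2.22 ± 0.46 (adjusted p = 0.0289). Prodh, the proline dehydrogenase, had 0.24 ± 0.24 on chow (adjusted p = 0.63) and 1.76 ± 0.21 on the high-fat diet (adjusted p = 3.44e-06), a difference of -1.52 ± 0.32 (adjusted p = 0.0298). The Chchd10 difference was lost without chow KO array 23 or WT array 13, and that of Hspb7 without any one of 9 of the 18 arrays and that of Prodh without any one of 12. The count of 45 was 4 without chow KO array 23 and 150 without high-fat WT array 37, and leaving out 1 array moved it by over 1.5 times for 15 of 18 arrays.

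In liver, partly of the same mice, the contrast of AM251-treated, chow-fed KO and WT mice gave 62 calls (0.324%), 10 higher (0.0522%) and 52 lower (0.272%). None of the 650 fat genes was among them in limma; 31 had an unadjusted p under 0.05 with the same sign and 48 with the opposite sign. The same sign was seen for 44.8% of the 650 and for 41.1% of all genes. For genes with several probe sets, the one used in liver can differ from the one used in fat. Fasn had 0.03 ± 0.34 in liver (adjusted p = 0.984) and Fdps -0.01 ± 0.22 (adjusted p = 0.989).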

How the data were processed

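Total RNA of 75 tissues was measured on one-colour arrays. Per the submitters' processing notes the authors used RMA, and the deposited values are probe set intensities on a linear scale, whose log2 was taken here; tool version and genome build are not given in the sources used here. Of 38385 probe sets, 24478 carry 1 gene symbol in the array annotation, 65 several and 13842 none. Where a gene had several probe sets (3958 of 19147 genes), the one brightest on average over the fat arrays stood for it. For liver values it was the one brightest over the liver arrays. Log2 intensities of all 36 fat arrays were fitted with 1 mean per group in limma 3.58.1 (R 4.3.3), with moderated two-sided tests and Benjamini-Hochberg adjustment, threshold 0.05. Liver arrays were fitted on their own. The number of arrays, 3 and 5, limits the precision.

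Genes were named by rule: the 12 largest rises and falls past the threshold whose groups did not overlap, the 6 largest interactions in each direction, Cnr1 with 10 neighbours on each side, and the 4 members with the smallest p of each list described. Genes named beyond these were chosen after their values were seen. Of 34 lists, 2 were added after seeing values. Members, lists and rules were chosen with earlier results of these data known. The fits were tested on simulated data. Alternatives were the groups in the fit, array weights, quantile normalization, the mean of probe sets, a filter on dim genes, log2 of intensity + 16, another prior, all probe sets one by one, and each array left out.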

Additional observations from a re-analysis of the deposited data

Results flagged for a closer look

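Of 101 named genes, 6 had 1 WT array of AM251-treated chow fat far from the other 4 in log2 intensity, and chance flags about 1 in 20 groups. WT array 11 stood high for Crtac1 (8.68, others 6.91 to 7.29) and Angptl4 (13.38, others 12.73 to 12.91), and low for Ppargc1a (4.79, others 5.91 to 6.07) and Hk2 (9.55, others 10.17 to 10.28). WT array 12 stood high for Fdps (8.94, others 8.62 to 8.67) and WT array 10 low for C1qa (11.93, others 12.10 to 12.16). The 3 KO arrays are too few for this comparison.

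The genotype effect of Fdps in chow fat differed between AM251 (1.37) and vehicle (-0.54), by 1.91 ± 0.28 (limma, adjusted p = 0.00142). Between chow and the high-fat diet, both with AM251, the effect differed for 12 named genes by limma's test of the difference. It was more positive on chow for Recql4 (2.13 and 0.32 on the 2 diets, chow first; difference 1.81, adjusted p = 0.0289), Dusp9 (-0.64 and -2.47; 1.83, adjusted p = 0.0457), Chchd10 (1.18 and -0.62; 1.80, adjusted p = 0.0197), Rassf6 (1.54 and -0.10; 1.64, adjusted p = 0.00437), Pdk1 (1.41 and -0.17; 1.59, adjusted p = 0.000384) and Pth1r (0.92 and -0.06; 0.98, adjusted p = 0.0414).

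It was more negative on chow for Hspb7 (-1.61 and 0.61; difference -2.22, adjusted p = 0.0289), Disp2 (-0.99 and 1.20; -2.19, adjusted p = 0.0414), D430019H16Rik (-0.89 and 1.15; -2.04, adjusted p = 0.00174), Ankrd29 (-1.59 and 0.41; -2.0, adjusted p = 0.0289), Gm6936 (0.06 and 1.61; -1.55, adjusted p = 0.0308) and Prodh (0.24 and 1.76; -1.52, adjusted p = 0.0298). Of the 12, Pdk1 and D430019H16Rik passed with every array left out in turn.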

How the results depend on the processing

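No named gene past the threshold reversed its direction in any alternative run. Among those that did not pass, 3 changed sign near 0: Gm6936 ran from -0.10 to 0.25, Prodh from -0.03 to 0.42 and Ucp1 from -0.18 to 0.0047. Of 101 named genes 81 passed in AM251-treated chow fat, 44 of them in every alternative and 47 with every array left out in turn; 14 were lost with only the groups compared in the fit, and the cause was not tested. The count of 650 was 428 with only the groups compared, 339 of them shared; leaving out 1 array gave 252 to 752, and quantile normalization 326 higher and 312 lower. Vehicle calls (11) were 20 with only the groups compared, 40 with array weights, 17 with the mean of probe sets and 2 to 34 with 1 array left out. The interaction with AM251 (1 call) gave 5 with only the groups compared, 2 with array weights, 16 with the mean of probe sets, 4 without dim genes, 17 over all probe sets, and 1 to 75 with 1 array left out. The interaction with diet (45) gave 194 with array weights and 4 to 150 with 1 array left out. The high-fat contrast (2908) gave 4490 over all probe sets and 2058 to 3384 with 1 array left out. No paired analysis was possible because the groups compared share no animal numbers. Genes dim in both groups, such as Ucp1, are limited by the arrays' background.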
